A study of Mus musculus with 12 samples.

Results

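Cytochrome P450 genes were followed in RNA sequencing of mouse lung from 12 libraries in 4 groups of 3. The members were all genes in the deposited table with protein_coding among their transcript types and a symbol made of Cyp, a family number, a subfamily letter and a gene number. This rule gave 69 members among 38349 genes, and it read no measured value. All libraries came from lung of wild-type animals, and the groups were Control, ALI (acute lung injury, which the series title ascribes to hypoxia and LPS, lipopolysaccharide), MSC and tpMSC, the last 2 being treatments given in that injury model. MSC and tpMSC are kept as the labels write them, and no source used here states strain, age, dose or times. Nothing in the labels says that replicates came from separate animals, so the p-values reflect sample-to-sample spread that could be technical.

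P450 enzymes are haem proteins that insert oxygen into small molecules, drawing electrons from NADPH through the reductase Por in the endoplasmic reticulum or through ferredoxin in mitochondria. Some subfamilies act mostly on foreign compounds, while others hydroxylate fatty acids and eicosanoids, cholesterol and oxysterols, retinoids, vitamin D or steroid hormones. In mouse lung, club cells of the airway are known for a high content of Cyp2f2, Cyp4b1 and Cyp2b10, and the endothelium is known for inducible Cyp1a1. The aryl hydrocarbon receptor (AhR) is a ligand-activated factor whose classical targets include Cyp1a1 and Cyp1b1.

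The sequences upstream of the start sites of 3 members are shown because these genes had the largest opposite changes among xenobiotic members (Cyp1a1 and Cyp1b1) and the highest level (Cyp2f2). They are RefSeq sequence of GRCm38.p6, 5′ to 3′ on the gene's strand, and capitals mark GCGTG, the core of the AhR response element, or AGGTCA, the hexamer bound by many nuclear receptors, with CACGC being GCGTG on the other strand. Cyp1a1 is chr9:57697363-57697612 on the plus strand, Cyp1b1 is chr17:79715062-79715311 on the minus strand, and Cyp2f2 is chr7:27119705-27119908 on the plus strand, ended where the GENCODE M21 exon begins.
Cyp1a1: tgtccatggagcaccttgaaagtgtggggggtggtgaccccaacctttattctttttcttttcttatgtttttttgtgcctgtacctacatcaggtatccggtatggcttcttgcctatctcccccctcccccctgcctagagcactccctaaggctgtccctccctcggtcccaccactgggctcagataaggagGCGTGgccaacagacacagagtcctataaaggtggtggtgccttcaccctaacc
Cyp1b1: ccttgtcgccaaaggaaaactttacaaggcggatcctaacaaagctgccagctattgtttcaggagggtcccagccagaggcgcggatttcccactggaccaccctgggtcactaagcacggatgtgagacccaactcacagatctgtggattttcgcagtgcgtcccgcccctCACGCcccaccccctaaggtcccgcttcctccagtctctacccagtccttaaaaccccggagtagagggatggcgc
Cyp2f2: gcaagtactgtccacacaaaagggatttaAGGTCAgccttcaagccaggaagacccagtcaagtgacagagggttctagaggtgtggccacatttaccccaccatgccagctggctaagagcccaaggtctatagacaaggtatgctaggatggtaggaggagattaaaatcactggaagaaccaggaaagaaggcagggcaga
Both motifs were searched on both strands in the 250 bases before the RefSeq start. The first base of the marked motif lay at -54 in Cyp1a1, -76 in Cyp1b1 and -221 in Cyp2f2, counted from the start site. GCGTG was found in 28.2% of all 32851 promoters in the table and in 8 of the 19 promoters matched for members at or above 1 FPKM. AGGTCA was found in 14.0% of all promoters and in 1 of those 19. A match here is a description of letters and not a measured binding site.

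The summed FPKM (a level scaled for transcript length and library size) of the 69 members was 1285 ± 146 in Control (SD, n = 3 for this and every group value), 618 ± 37.2 in ALI, 864 ± 201 in MSC and 946 ± 113 in tpMSC. Cyp2f2 alone made up 59.0 ± 3.73% of the Control sum and 27.9 ± 1.97% of the ALI sum, against 45.2 ± 9.44% in MSC and 52.5 ± 5.3% in tpMSC. Together Cyp2f2, Cyp4b1 and Cyp2b10 held 86.4%, 72.0%, 82.7% and 85.8% of the sum in Control, ALI, MSC and tpMSC. Without these 3 the sum was 175 ± 17.6 in Control, 173 ± 8.91 in ALI, 147 ± 22.9 in MSC and 133 ± 4.17 in tpMSC. On this remainder ALI overlapped Control, and every tpMSC library was below every Control and ALI library. In bulk tissue, fewer cells of a type and less RNA per cell cannot be told apart.

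**Figure D1:**
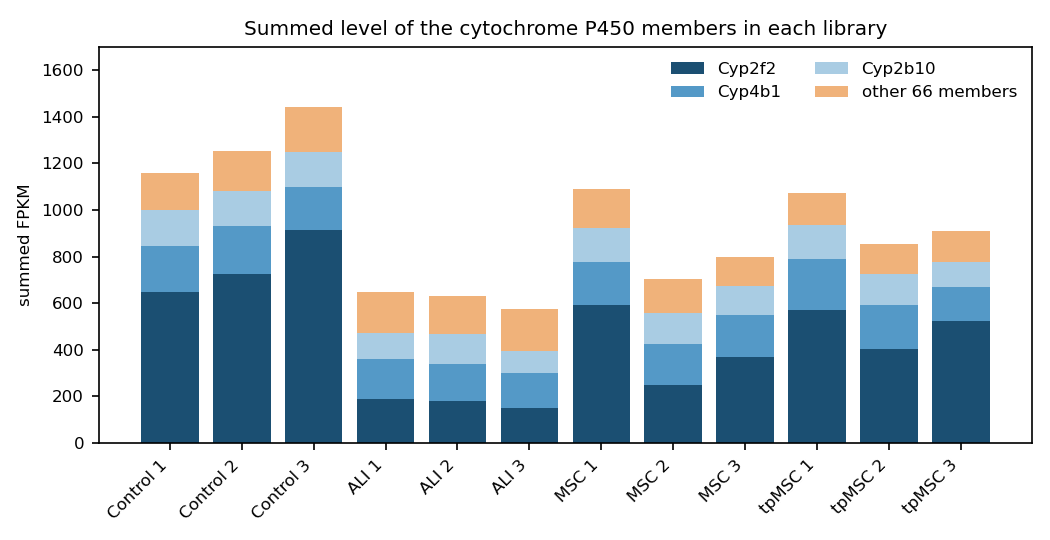
Summed FPKM of the 69 members in each of the 12 libraries, stacked as Cyp2f2, Cyp4b1, Cyp2b10 and the other 66 members. The 3 ALI libraries lie between 575 and 646, below every Control library (1158 to 1444), and the change is mostly in the Cyp2f2 segment.

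Of the 69 members, 41 passed the filter on low counts and were tested, 28 did not pass, and 5 of those had no count in any library. Among the 28, no group mean was above 0.12 FPKM and no total over the 12 libraries was above 78 counts. A mean over all libraries of at least 1 FPKM was reached by 23 members, and the same 23 had a group mean of at least 1. By group, 23 members had a mean of at least 1 FPKM in Control, 20 in ALI, 23 in MSC and 22 in tpMSC. By role, the 69 were 34 members of xenobiotic subfamilies (families 1, 2 and 3), 21 of fatty acid and eicosanoid subfamilies, 5 of cholesterol, bile acid and oxysterol metabolism, 4 of steroid hormone synthesis, 4 of vitamin D and retinoid metabolism, and Cyp20a1, which has no assigned role.

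Library totals ran from 53083002 to 70209229 counts, so depth differed little between libraries. Markers of other cell types also differed between groups. The share of all tested genes called in ALI against Control was 20.2% higher and 19.6% lower. Neutrophil markers summed to 146 to 240 FPKM in Control, 3824 to 4316 in ALI, 482 to 1000 in MSC and 473 to 622 in tpMSC, and 10 of 10 rose in ALI. Monocyte and recruited macrophage markers ran from 102 to 110 FPKM in Control and from 789 to 838 in ALI, with 9 of 10 higher. Endothelial markers ran from 1281 to 1337 in Control and from 588 to 645 in ALI, with 13 of 14 lower. Airway secretory markers ran from 15320 to 23483 in Control and from 8916 to 9968 in ALI, with 3 of 12 higher (Hp, Muc5b and Gabrp) and 4 lower (Scgb1a1, Scgb3a2, Aldh1a7 and Ldhb).

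The comparison of ALI with Control asks what the injury model did to these genes. In ALI, 23 of the 41 tested members were lower and 5 were higher at an adjusted p under 0.05 (edgeR's quasi-likelihood test, Benjamini-Hochberg over 22915 genes). Over all tested genes 19.6% were lower and 20.2% were higher. Among the 23 members of at least 1 FPKM, 15 fell, 5 rose and 3 did not pass the test, and their median log2 fold change was -0.73 against -0.02 over all tested genes. Xenobiotic members gave 11 lower and 1 higher of 17 tested, the fatty acid and eicosanoid group 6 lower and 3 higher of 14, and the cholesterol and oxysterol group 4 lower and 1 higher of 5. The vitamin D and retinoid group gave 1 lower of 3, and the 1 tested steroid hormone member was lower. Some of the lower calls were of members with every group mean below 1 FPKM. These were Cyp2c23, Cyp2ab1, Cyp2b19 and Cyp3a57 (xenobiotic), Cyp2u1 (fatty acid), Cyp8b1 and Cyp46a1 (cholesterol) and Cyp11a1 (steroid hormone). They had to be seen in some group to pass the filter, so their calls support no direction for the family.

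**Figure D2:**
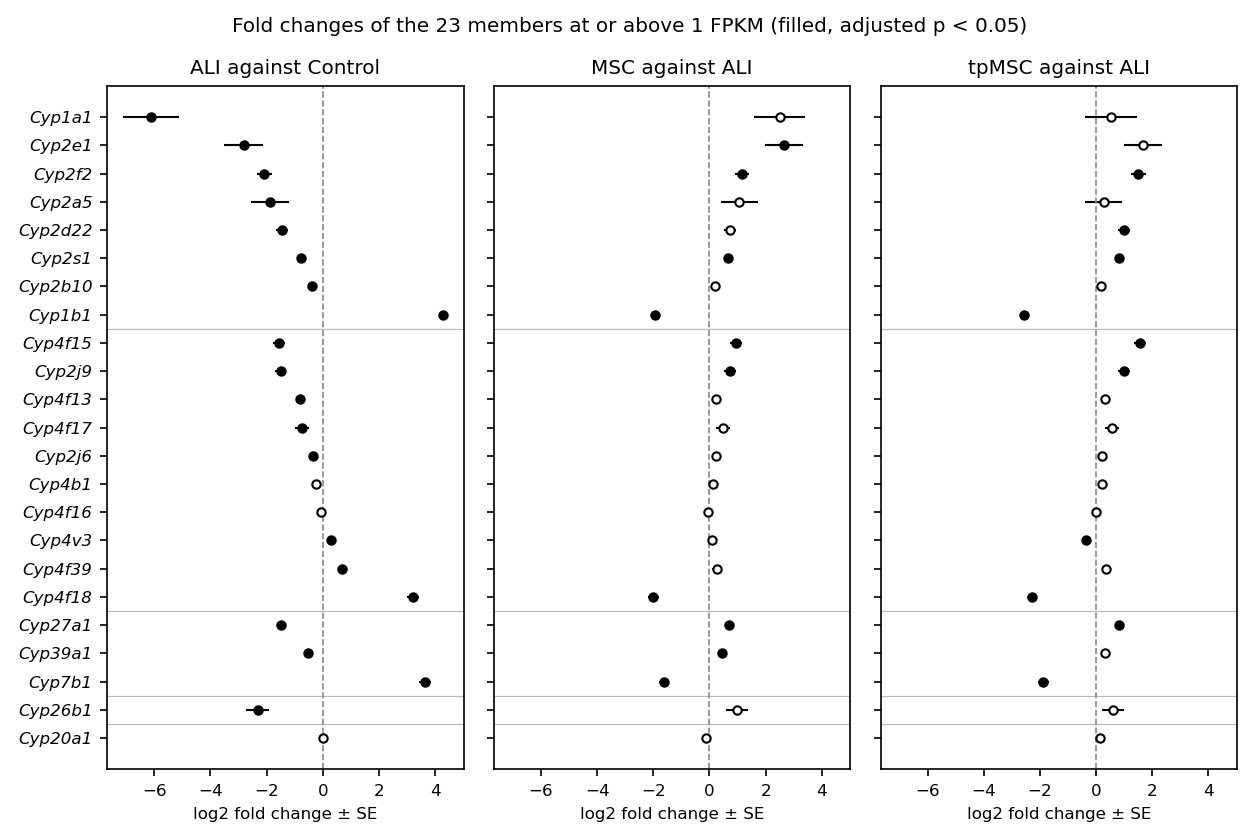
Log2 fold change ± SE from edgeR for the 23 members of at least 1 FPKM in ALI against Control, MSC against ALI and tpMSC against ALI, with lines separating roles (xenobiotic, fatty acid, cholesterol and oxysterol, retinoid, unassigned) and filled points for an adjusted p under 0.05. Cyp1b1, Cyp4f18 and Cyp7b1 stand at 4.29, 3.22 and 3.65 in the left panel and below 0 in the other panels, which share the ALI libraries with it.

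Cyp2f2 (ENSMUSG00000052974, GRCm38 chr7:27119909-27133660), the club cell enzyme that activates naphthalene, was the most abundant member in every library but 1. Its level was 648, 726 and 912 FPKM in the Control libraries, 190, 180 and 148 in ALI, 590, 249 and 368 in MSC, and 570, 401 and 523 in tpMSC. All ALI libraries were below every other library, and the MSC and tpMSC libraries were all below the lowest Control library. The gene fell in ALI (log2 fold change -2.08 ± 0.26 SE, adjusted p = 8.92e-05). It was higher than ALI in MSC (1.17 ± 0.26, adjusted p = 0.0152) and in tpMSC (1.5 ± 0.26, adjusted p = 0.00182), while the MSC call was lost without ALI replicate 3 (adjusted p = 0.0652). Against Control, MSC was lower (-0.91 ± 0.26, adjusted p = 0.0286, and 0.0968 without Control replicate 3), and tpMSC did not pass the test (-0.58, adjusted p = 0.149). Scgb1a1, the main secretory protein of club cells, was also lower in ALI, at 7609 against 18070 FPKM (log2 fold change -1.19, adjusted p = 0.000832). Of the 12 airway secretory markers, 4 fell and 3 rose in ALI, beside 19.6% and 20.2% of all tested genes. Scgb1a1 in MSC did not pass the test against ALI (0.59, adjusted p = 0.099). In tpMSC it was at 18660 FPKM, with a log2 fold change of 0.08 against Control (adjusted p = 0.838). Whether the proportion of club cells moved with Cyp2f2 was not tested. Exons of Cyp2f2 share 274 bases, 13.5% of its exon length, with the opposite-strand gene Gm15883, and no source used here states whether counting used strand.

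The other abundant members differed much less. Cyp4b1, a lung fatty acid hydroxylase that also activates plant toxins, was at 197, 204 and 185 FPKM in Control, 168, 159 and 151 in ALI, 187, 176 and 181 in MSC, and 218, 192 and 146 in tpMSC. Its ALI libraries were all below Control, with a log2 fold change of -0.23 ± 0.11 that did not pass the test (adjusted p = 0.129). Cyp2b10, the classical target of the xenobiotic receptor CAR (Nr1i3), was at 155, 150 and 154 FPKM in Control, 113, 129 and 95.7 in ALI, 145, 131 and 125 in MSC, and 148, 133 and 106 in tpMSC. It fell in ALI by 0.38 ± 0.12 on the log2 scale (adjusted p = 0.0291), a call lost when any 1 of 5 Control or ALI libraries was left out (all except ALI replicate 2), with adjusted p up to 0.115. Neither gene passed the test between a treated group and ALI in the fit of all libraries. Without tpMSC replicate 3, Cyp4b1 was called higher in tpMSC than in ALI (0.34, adjusted p = 0.00848) and lower in ALI than in Control (-0.24, adjusted p = 0.0192).

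**Figure D3:**
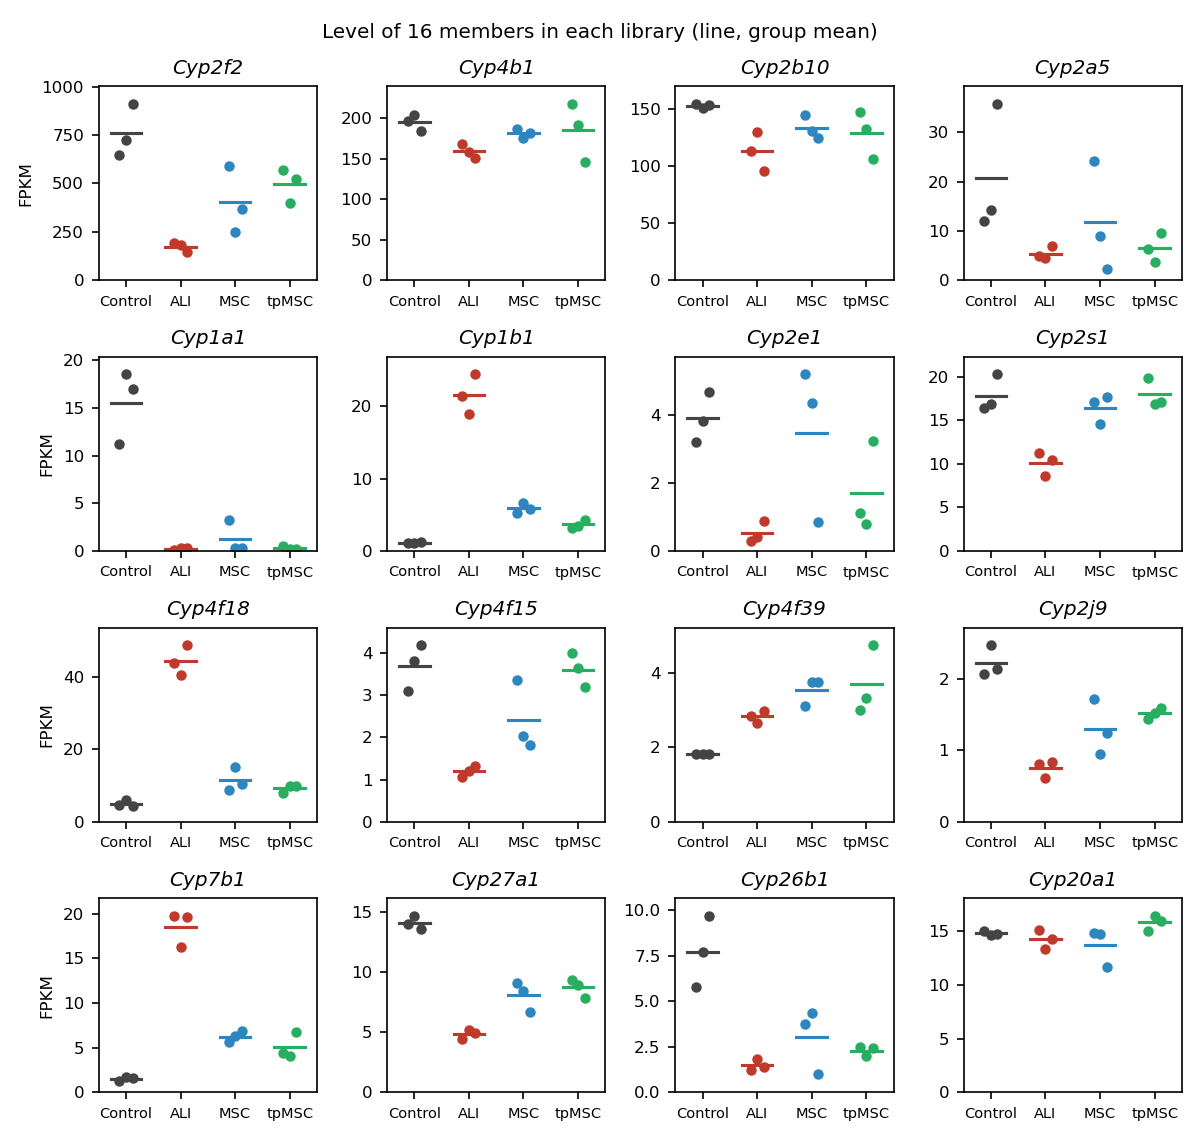
FPKM of 16 members in each library (points) with the group mean (line), each panel on its own scale from 0. Cyp1b1, Cyp4f18 and Cyp7b1 are highest in the 3 ALI libraries, Cyp1a1 is above 11 FPKM only in Control, and Cyp20a1 stays between 11.6 and 16.4 FPKM.

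Cyp1a1 and Cyp1b1, the AhR target enzymes that oxidise polycyclic aromatic hydrocarbons, moved in opposite directions in ALI. Cyp1a1 (chr9:57687928-57703824) was at 11.2, 18.5 and 17 FPKM in Control, 0.05, 0.27 and 0.32 in ALI, 3.28, 0.28 and 0.30 in MSC, and 0.53, 0.19 and 0.23 in tpMSC. Every treated or injured library was below every Control library, and MSC replicate 1 stood above the other 8 of them. Its log2 fold change was -6.10 ± 1.00 in ALI (adjusted p = 0.000517), and against Control it was -3.59 ± 0.86 in MSC (adjusted p = 0.0139) and -5.57 ± 0.96 in tpMSC (adjusted p = 0.00368). Against ALI, neither MSC (2.51 ± 0.91, adjusted p = 0.107) nor tpMSC (0.53 ± 0.94, adjusted p = 0.739) passed the test. The MSC value against ALI was 0.41 without MSC replicate 1, while it was called without MSC replicate 2 (2.98, adjusted p = 0.042) and under DESeq2 (2.50, adjusted p = 0.0472). Against Control, the MSC value was -5.70 without MSC replicate 1 (adjusted p = 0.000264). Endothelial markers were lower in the same libraries, from 588 to 961 FPKM summed over ALI, MSC and tpMSC against at least 1281 in Control, and their part in the Cyp1a1 result was not tested.

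Cyp1b1 (chr17:79701537-79715061) was at 1.05, 1.12 and 1.28 FPKM in Control, 21.4, 19 and 24.4 in ALI, 5.25, 6.65 and 5.76 in MSC, and 3.20, 3.47 and 4.31 in tpMSC. The 4 groups did not overlap. It had the largest rise of any tested member in ALI, with a log2 fold change of 4.29 ± 0.16 (adjusted p = 2.58e-08). Both treated groups were lower than ALI (MSC -1.92 ± 0.14, adjusted p = 3.6e-05; tpMSC -2.58 ± 0.14, adjusted p = 8e-06) and higher than Control (MSC 2.37 ± 0.14, adjusted p = 4.36e-06; tpMSC 1.71 ± 0.14, adjusted p = 9.62e-05). Summed monocyte and recruited macrophage markers followed the same order of groups, at 382 to 524 FPKM in MSC and 230 to 383 in tpMSC, which overlapped. Against ALI, 2 of the 10 markers were lower in MSC (list median -0.35) and 8 in tpMSC (list median -0.84). The shares of all tested genes lower were 5.21% in MSC and 11.5% in tpMSC. The part of these cells in the Cyp1b1 level was not tested.

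AhR pathway genes moved in both directions. Tiparp, a target that restrains the receptor, rose in ALI from 10.2 ± 0.36 to 18.5 ± 0.92 FPKM (log2 fold change 0.92, adjusted p = 7.8e-06). Ahr itself fell from 19.1 ± 1.28 to 11.7 ± 0.83 FPKM (-0.64, adjusted p = 0.00091), and its partner Arnt fell from 11.3 ± 0.33 to 9.15 ± 0.32 FPKM (-0.24, adjusted p = 0.0104). The repressor Ahrr and the reductase Nqo1 did not pass the test. Tiparp was lower than in ALI in both MSC and tpMSC (-0.39, adjusted p = 0.0111, and -0.70, adjusted p = 0.000168).

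Of the remaining xenobiotic members, Cyp2s1, Cyp2d22, Cyp2a5 and Cyp2e1 all fell in ALI. Cyp2s1, an epithelial member, was at 16.4, 16.8 and 20.3 FPKM in Control, 11.2, 8.64 and 10.4 in ALI, 17.1, 14.6 and 17.7 in MSC, and 19.9, 16.9 and 17.1 in tpMSC. The ALI libraries were below all others, and the other 3 groups overlapped. The log2 fold change was -0.76 ± 0.12 in ALI (adjusted p = 0.000325), and relative to ALI it was 0.66 ± 0.12 in MSC (adjusted p = 0.00513) and 0.81 ± 0.12 in tpMSC (adjusted p = 0.000641). Its estimates against Control were -0.10 ± 0.12 in MSC and 0.05 ± 0.12 in tpMSC, which did not pass the test (adjusted p = 0.593 and 0.84).

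Cyp2d22, the mouse relative of the human drug-metabolising enzyme CYP2D6, was at 15.4, 15.5 and 11.9 FPKM in Control, 5.00, 5.91 and 4.25 in ALI, 10.6, 7.37 and 8.14 in MSC, and 12.0, 11.7 and 6.71 in tpMSC. ALI was below every other library. The fall in ALI was -1.44 ± 0.22 on the log2 scale (adjusted p = 0.000304), tpMSC was higher than ALI (0.98 ± 0.22, adjusted p = 0.00713), and MSC did not pass the test (0.73 ± 0.22, adjusted p = 0.0521). The MSC value was called under DESeq2 (adjusted p = 0.00753), with the stricter filter (0.0462), without MSC replicate 2 (0.0416) and without tpMSC replicate 3 (0.0125).

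The next 2 members varied widely within groups. Cyp2a5, which hydroxylates coumarin and nicotine, was at 11.9, 14.3 and 35.9 FPKM in Control, 4.87, 4.47 and 6.89 in ALI, 24.2, 9.01 and 2.27 in MSC, and 6.42, 3.79 and 9.62 in tpMSC. Control replicate 3 was far above the other Control libraries, and MSC spanned the whole range from below ALI to above 2 of the Control libraries. Its fall in ALI (-1.87 ± 0.68, adjusted p = 0.0465) was lost in 12 of the alternatives, and without Control replicate 3 it was -1.22 (adjusted p = 0.201). The transcript matches the neighbouring Cyp2a4 at 98.2% of 1739 aligned bases, so reads of these 2 genes may have been shared.

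Cyp2e1, the ethanol-oxidising enzyme, was at 3.21, 3.84 and 4.70 FPKM in Control, 0.30, 0.41 and 0.87 in ALI, 5.21, 4.36 and 0.85 in MSC, and 1.13, 0.78 and 3.25 in tpMSC. ALI did not overlap Control, whereas MSC replicate 3 and 2 of the tpMSC libraries were near ALI. Cyp2e1 fell in ALI (-2.82 ± 0.69, adjusted p = 0.00646). It was higher in MSC than in ALI (2.65 ± 0.68, adjusted p = 0.0315), a call lost without MSC replicate 1 (adjusted p = 0.11) or 2 (0.0557) and without ALI replicate 1 (0.121) or 2 (0.0946). The tpMSC value did not pass (1.68 ± 0.67, adjusted p = 0.0945, and 0.0359 without MSC replicate 3).

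Adipocyte and cardiac muscle markers varied in the same libraries as Cyp2e1. Adipocyte markers, 10 genes, summed to 11.5, 12.6 and 32.5 FPKM in Control, 6.20, 4.30 and 12.9 in ALI, 31.3, 16.2 and 3.10 in MSC, and 14.0, 13.8 and 39.7 in tpMSC. In each group the library with the highest adipocyte sum also had the highest Cyp2e1 and the highest Cyp2a5. Cardiac muscle markers were highest in those 4 libraries too, at 40.4, 21.7, 44.5 and 71.0 FPKM. The part of adipose or cardiac muscle tissue in the levels of both genes was not tested. Hepatocyte markers, 12 genes, summed to 2.6 to 3.5 FPKM in Control, 7.9 to 15.0 in ALI, 6.3 to 6.8 in MSC and 7.0 to 7.5 in tpMSC. Of the 9 tested, 2 were higher and 1 was lower in ALI than in Control. Alb, against the direction of the sum, was at 0.50 FPKM in Control and 0.087 in ALI.

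**Figure D4:**
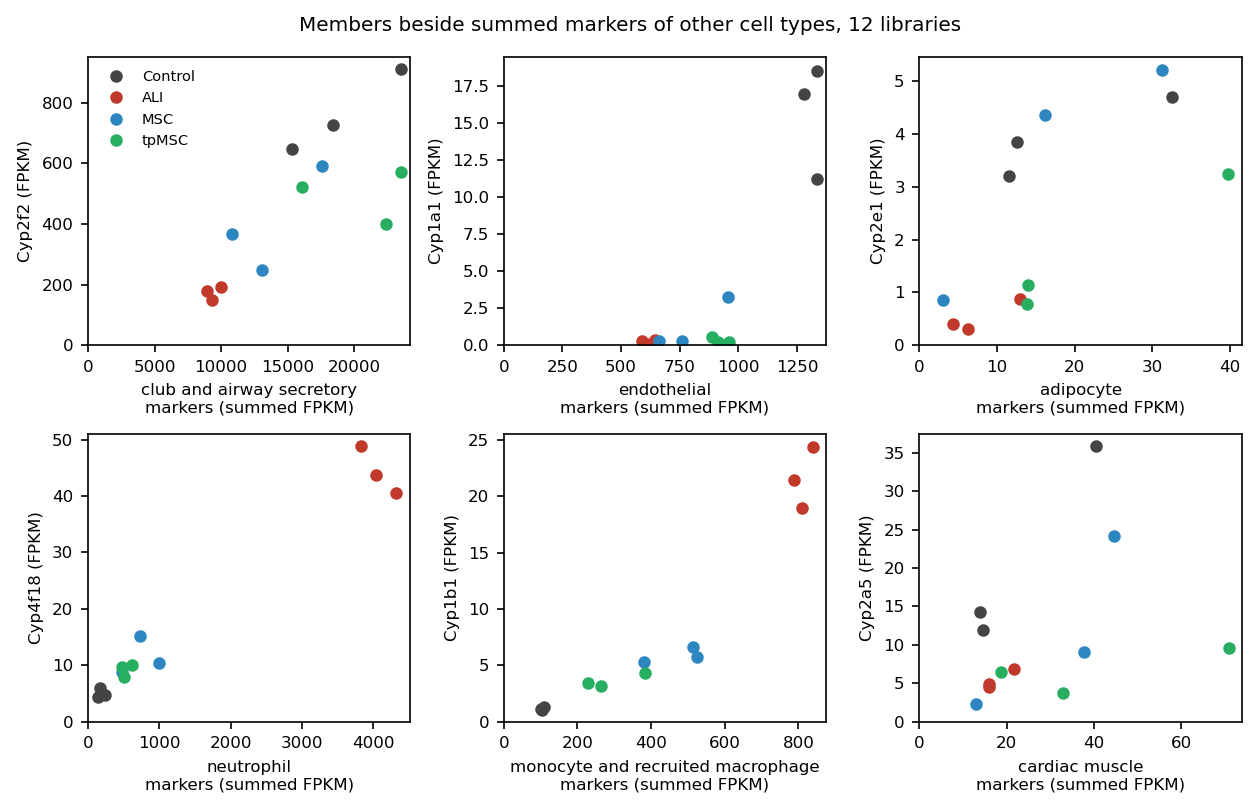
Each point is 1 of the 12 libraries, coloured by group, with the summed FPKM of a marker list on the horizontal axis and the FPKM of a member on the vertical axis, both from 0. Cyp4f18 and Cyp1b1 are high where neutrophil and monocyte markers are high, and Cyp1a1 is above 11 FPKM only in the Control libraries, where endothelial markers are at or above 1281.

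Among fatty acid and eicosanoid members, Cyp4f18 (chr8:71988482-72009626), a leukotriene B4 hydroxylase of neutrophils, stood apart in ALI. Its level was 4.66, 5.93 and 4.34 FPKM in Control, 43.8, 40.6 and 48.9 in ALI, 8.85, 15.1 and 10.4 in MSC, and 8.01, 10.0 and 9.78 in tpMSC. Control was lowest and ALI highest with no overlap, and MSC and tpMSC overlapped between them. The log2 fold change was 3.22 ± 0.20 in ALI (adjusted p = 1.18e-06), -2.0 ± 0.19 in MSC against ALI (adjusted p = 0.000191) and -2.28 ± 0.19 in tpMSC against ALI (adjusted p = 3.36e-05). It remained higher than Control in MSC (1.21 ± 0.19, adjusted p = 0.00156) and tpMSC (0.93 ± 0.19, adjusted p = 0.00785). The neutrophil marker list had a median log2 fold change of 4.67 in ALI, and its part in the Cyp4f18 level was not tested. Exons of Cyp4f18 share 181 bases with Zfp961 on the opposite strand.

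The Cyp4f genes on chromosome 17, related enzymes of leukotriene and fatty acid hydroxylation, did not move together, although they lie side by side. From Cyp4f39 (chr17:32452723-32493320) to Cyp4f13 (chr17:32924688-32947402), Cyp4f39 rose in ALI, Cyp4f17, Cyp4f15 and Cyp4f13 fell, and Cyp4f16, Cyp4f37 and Cyp4f40 did not pass the test. Cyp4f15 was at 3.11, 3.81 and 4.19 FPKM in Control, 1.05, 1.21 and 1.33 in ALI, 3.36, 2.03 and 1.83 in MSC, and 4.00, 3.64 and 3.19 in tpMSC. All tpMSC libraries were within the Control range, and all ALI libraries were below every other library. Its log2 fold change was -1.56 ± 0.22 in ALI (adjusted p = 0.00019), 0.95 ± 0.22 in MSC against ALI (adjusted p = 0.0189, lost without ALI replicate 1 at 0.0838 or MSC replicate 1 at 0.0611), and 1.56 ± 0.22 in tpMSC against ALI (adjusted p = 0.00057).

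Cyp4f39, known for the omega-hydroxylation of very long fatty acids in skin, was at 1.81, 1.83 and 1.82 FPKM in Control, 2.85, 2.66 and 2.97 in ALI, 3.10, 3.74 and 3.74 in MSC, and 3.00, 3.32 and 4.74 in tpMSC. Every library of the 3 other groups was above every Control library. In neither treated group was its estimate below ALI, with 0.27 ± 0.17 for MSC and 0.36 ± 0.17 for tpMSC (adjusted p = 0.349 and 0.14). Against Control it was higher in ALI (0.69 ± 0.17, adjusted p = 0.00587), MSC (0.96 ± 0.17, adjusted p = 0.00265) and tpMSC (1.05 ± 0.17, adjusted p = 0.00244).

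Cyp4f13 was at 7.25, 7.07 and 6.42 FPKM in Control, 3.82, 3.42 and 4.11 in ALI, 5.37, 4.72 and 3.79 in MSC, and 5.54, 5.21 and 3.74 in tpMSC. No library of the other 3 groups reached Control, and replicate 3 of MSC and of tpMSC were within the ALI range. It fell in ALI (-0.81 ± 0.15, adjusted p = 0.00124), and against Control it was lower in MSC (-0.57 ± 0.15, adjusted p = 0.0219) and tpMSC (-0.48 ± 0.15, adjusted p = 0.0488). The MSC call was lost in 4 alternatives, with 0.0759 without Control replicate 1. The tpMSC call was lost in 10 alternatives, with 0.147 without tpMSC replicate 3. Cyp4f17 fell in ALI by 0.73 ± 0.25 on the log2 scale (adjusted p = 0.0373, and 0.119 without ALI replicate 3). Cyp4f16 had values of 5.64 to 8.60 FPKM over all libraries and a log2 fold change of -0.06 ± 0.14 in ALI, and it matches Cyp4f37 at 96.1% of 1607 aligned bases.

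Cyp4v3, the mouse counterpart of a fatty acid hydroxylase linked to a human retinal dystrophy, was at 14.3, 14.9 and 13.8 FPKM in Control, 17.3, 18.2 and 15.2 in ALI, 18.9, 21 and 16.2 in MSC, and 13.2, 12.7 and 14.0 in tpMSC. ALI and MSC lay above Control and tpMSC without overlap. The rise in ALI was small (0.30 ± 0.10, adjusted p = 0.0277, and 0.104 without ALI replicate 2), tpMSC was lower than ALI (-0.37 ± 0.10, adjusted p = 0.0177, and 0.0791 without ALI replicate 2), and MSC was higher than Control (0.40 ± 0.10, adjusted p = 0.0155, and 0.06 without Control replicate 3).

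The epoxygenase subfamily members Cyp2j9 and Cyp2j6, which act on arachidonic acid, were both lower in ALI. Cyp2j9 was at 2.06, 2.47 and 2.14 FPKM in Control, 0.81, 0.61 and 0.83 in ALI, 1.72, 0.94 and 1.24 in MSC, and 1.44, 1.52 and 1.59 in tpMSC. The treated libraries lay between ALI and Control with no overlap. Its log2 fold change was -1.5 ± 0.21 in ALI (adjusted p = 0.000169) and 0.99 ± 0.21 in tpMSC against ALI (adjusted p = 0.00542). The MSC value against ALI was 0.74 ± 0.21 (adjusted p = 0.0432), a call lost in 13 alternatives, with 0.167 without MSC replicate 1. Cyp2j6, its neighbour on chromosome 4, fell in ALI by 0.36 ± 0.081 (adjusted p = 0.00397), from 4.77 ± 0.18 to 3.57 ± 0.061 FPKM.

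In cholesterol and oxysterol metabolism, Cyp7b1 rose in ALI and the other 4 members fell. Cyp7b1 (chr3:18071950-18243338), which hydroxylates and clears oxysterols, was at 1.23, 1.75 and 1.62 FPKM in Control, 19.8, 16.3 and 19.6 in ALI, 5.6, 6.3 and 6.86 in MSC, and 4.40, 4.13 and 6.74 in tpMSC. Control and ALI were at the ends, and the treated groups overlapped in between. The log2 fold change was 3.65 ± 0.21 in ALI (adjusted p = 7.56e-07), -1.62 ± 0.19 in MSC against ALI (adjusted p = 0.000714) and -1.89 ± 0.19 in tpMSC against ALI (adjusted p = 9.54e-05). Against Control both treated groups were higher, by 2.04 ± 0.20 in MSC (adjusted p = 0.000139) and 1.77 ± 0.20 in tpMSC (adjusted p = 0.000508).

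Cyp27a1 (chr1:74713574-74737892), a mitochondrial sterol hydroxylase that makes an oxysterol ligand of the liver X receptor, was at 14.0, 14.7 and 13.6 FPKM in Control, 4.46, 5.17 and 4.94 in ALI, 9.11, 8.47 and 6.72 in MSC, and 9.36, 8.95 and 7.87 in tpMSC. The treated groups lay between ALI and Control in all 6 libraries. It fell in ALI (-1.47 ± 0.12, adjusted p = 4.09e-06) and was higher than ALI in MSC (0.69 ± 0.12, adjusted p = 0.0038) and tpMSC (0.82 ± 0.12, adjusted p = 0.000533). Both remained lower than Control, by -0.79 ± 0.11 in MSC (adjusted p = 0.00105) and -0.66 ± 0.11 in tpMSC (adjusted p = 0.00378).

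Cyp39a1, another oxysterol hydroxylase, fell in ALI from 8.60 ± 0.36 to 5.72 ± 0.68 FPKM (log2 fold change -0.53 ± 0.11, adjusted p = 0.00192). It was higher in MSC than in ALI (0.45 ± 0.11, adjusted p = 0.0193, and 0.0837 without ALI replicate 1). Cyp8b1, a bile acid synthesis enzyme, and Cyp46a1, known as a cholesterol hydroxylase of neurons, were under 1.1 FPKM in every library and fell by 0.91 ± 0.23 (adjusted p = 0.00811) and 1.26 ± 0.31 (adjusted p = 0.00702).

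Cyp26b1, which degrades retinoic acid, was at 5.76, 7.71 and 9.68 FPKM in Control, 1.21, 1.82 and 1.40 in ALI, 3.76, 4.35 and 1.02 in MSC, and 2.49, 1.97 and 2.43 in tpMSC. Control was above all other libraries, and MSC replicate 3 was below all ALI libraries. It fell in ALI (-2.32 ± 0.41, adjusted p = 0.000907) and was lower than Control in MSC (-1.33 ± 0.40, adjusted p = 0.0374) and tpMSC (-1.71 ± 0.40, adjusted p = 0.0157). Both calls against Control were lost without Control replicate 3 (adjusted p = 0.118 and 0.053). Against ALI neither passed (0.99 ± 0.40, adjusted p = 0.15, and 0.61 ± 0.40, adjusted p = 0.31), but without MSC replicate 3 both were called (1.40, adjusted p = 0.00376, and 0.61, adjusted p = 0.0457). Cyp20a1, an orphan enzyme, was at 14.8 ± 0.21 FPKM in Control and 14.3 ± 0.86 in ALI and did not pass the test (adjusted p = 0.983).

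Below 1 FPKM, 18 members were tested and 8 of them fell in ALI, while none rose. Of all tested genes, 19.6% fell and 20.2% rose. The 8 members that fell were Cyp8b1, Cyp46a1, Cyp2c23, Cyp2ab1, Cyp2u1, Cyp11a1, Cyp2b19 and Cyp3a57. Cyp2c23, an arachidonic acid epoxygenase by its known activity, was at 1.04, 0.46 and 0.58 FPKM in Control, and 0, 0 and 0.08 in ALI. Cyp3a57 had no count in ALI and 21 in Control, at least 6.42-fold lower than Control when a floor of 3 counts over the group is used, and its call was lost in 13 alternatives. These members had to be seen somewhere to pass the filter, so their counts support no direction for the family.

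By position, 9 tested members lie in 1 stretch of chromosome 7 between Cyp2s1 (chr7:25802475-25816913) and Cyp2t4 (chr7:27153714-27158668). Cyp2s1, Cyp2b10, Cyp2b19, Cyp2a5 and Cyp2f2 fell in ALI, and Cyp2b13, Cyp2a4, Cyp2a12 and Cyp2t4 did not pass the test. Of all tested genes, 19.6% fell and 20.2% rose in ALI. The calls of Cyp2b10 and Cyp2a5 were lost in 5 and 12 alternatives, and Cyp2b19 was at 0.13 FPKM in Control and 0.017 in ALI. This stretch was singled out after the values were seen.

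The treatments were then compared with ALI, and both comparisons share the ALI libraries with the one above. In MSC, 7 of 41 members were higher and 3 were lower than in ALI, with 5.03% of all tested genes higher and 5.21% lower. In tpMSC, 6 were higher and 4 were lower, with 11.6% and 11.5% of all genes. Over the 23 members of at least 1 FPKM, the median log2 fold change was 0.45 in MSC and 0.33 in tpMSC, against 0.02 and 0.01 over all tested genes. Higher in MSC were Cyp2f2, Cyp2s1, Cyp27a1, Cyp39a1, Cyp2e1, Cyp4f15 and Cyp2j9, and higher in tpMSC were Cyp2f2, Cyp2s1, Cyp2d22, Cyp27a1, Cyp4f15 and Cyp2j9. Cyp4f18, Cyp1b1 and Cyp7b1 were lower in each, and Cyp4v3 was lower in tpMSC. The number higher in MSC was 3 without MSC replicate 1 and 4 without ALI replicate 1, and the number higher in tpMSC was 10 without tpMSC replicate 3.

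No member passed the test between tpMSC and MSC, where 0.0175% of all tested genes were higher in tpMSC and 0.0131% were lower. The unadjusted p was under 0.05 for 6 of the 41 members. The estimates nearest the threshold were those of Cyp1b1 (-0.66 ± 0.14, adjusted p = 0.114) and Cyp4v3 (-0.46 ± 0.10, adjusted p = 0.114), both lower in every tpMSC library than in every MSC library. DESeq2 called these 2 members lower in tpMSC, with adjusted p of 0.00103 for Cyp1b1 and 0.00202 for Cyp4v3, in a fit that called 449 of all 22915 genes lower and 221 higher. Without tpMSC replicate 3, edgeR called both as well (adjusted p = 0.0177 and 0.0492). A p that misses the threshold does not show that the treatments act alike: for Cyp2f2 the estimate was 0.33 ± 0.25 and for Cyp4f15 0.61 ± 0.21.

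Compared with Control, the MSC libraries had 5 members higher and 9 lower, with 10.7% of all tested genes higher and 8% lower. In tpMSC 4 were higher and 4 lower, with 9.1% and 6.79% of all genes. Cyp4f18, Cyp1b1, Cyp7b1 and Cyp4f39 were higher than Control in both treated groups, and Cyp1a1, Cyp27a1, Cyp26b1 and Cyp4f13 were lower in both. Both sets of calls use the same Control libraries. Also called in MSC were Cyp4v3, higher, and Cyp2f2, Cyp2d22, Cyp2j9, Cyp3a13 and Cyp2ab1, lower. The lower count in MSC rests on single libraries, since it was 2 without Control replicate 2, 4 without Control replicate 1 or 3, and 3 without MSC replicate 2 or 3. In tpMSC the lower count was 2 without Control replicate 3.

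Of 10 genes for proteins that supply P450 enzymes with electrons, bind them or handle haem, 5 fell and 1 rose in ALI. Over all tested genes 19.6% fell and 20.2% rose. Por, the electron donor of microsomal P450 enzymes, fell from 59.4 ± 5.19 to 31.8 ± 1.08 FPKM (log2 fold change -0.84 ± 0.14, adjusted p = 0.000525), and relative to ALI it was 0.16 ± 0.14 in MSC and 0.23 ± 0.14 in tpMSC, neither passing the test. Pgrmc1, a haem-binding partner, fell from 121 ± 4.03 to 68.7 ± 6.93 FPKM (-0.75 ± 0.11, adjusted p = 0.000273). Hmox1, which breaks haem down, rose from 18.4 ± 6.85 to 112 ± 13.9 FPKM (2.67 ± 0.25, adjusted p = 1.29e-05). Cyb5a, cytochrome b5, fell as well (-0.54 ± 0.090, adjusted p = 0.000609). Against ALI, 2 of the 10 were higher and 1 lower in MSC, and 4 were higher and 1 lower in tpMSC. The shares over all tested genes were 5.03% higher and 5.21% lower in MSC, and 11.6% and 11.5% in tpMSC.

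Other drug-metabolising and conjugating enzymes gave 11 lower and 2 higher of 17 tested in ALI, beside 19.6% and 20.2% of all tested genes. Ephx1, the microsomal epoxide hydrolase, fell from 76.4 ± 5.96 to 19.4 ± 0.61 FPKM (-1.92 ± 0.19, adjusted p = 1.73e-05), and Gstm1, a glutathione transferase, from 252 ± 14.7 to 70.3 ± 3.80 FPKM (-1.78 ± 0.18, adjusted p = 1.94e-05). Ugt1a7c, a glucuronosyltransferase, rose from 2.68 ± 0.11 to 8.01 ± 0.29 FPKM (1.64 ± 0.17, adjusted p = 2.46e-05). Genes of the Ugt1a locus are known to share exons, so its count is uncertain. Relative to ALI, 7 were higher and 1 lower in MSC, and 10 were higher and 1 lower in tpMSC. Of all tested genes, 5.03% were higher and 5.21% lower in MSC, and 11.6% and 11.5% in tpMSC.

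Of 10 tested nuclear receptors, Nr1h3, the liver X receptor alpha, rose in ALI (0.66 ± 0.080, adjusted p = 6.91e-05), while Rxra (-0.37 ± 0.066, adjusted p = 0.000912), Pparg (-1.81 ± 0.45, adjusted p = 0.00716) and Rarb (-0.90 ± 0.23, adjusted p = 0.00919) fell. The shares of all tested genes in ALI were 20.2% higher and 19.6% lower. Against ALI, 1 receptor was lower in MSC, and 2 were higher and 1 lower in tpMSC. Of all tested genes, 5.21% were lower in MSC, and 11.6% were higher and 11.5% lower in tpMSC. Pparg is also an alveolar macrophage gene, and that marker list, which includes Pparg itself, fell from 373 to 452 FPKM in Control to 82.7 to 95.9 in ALI. Also measured were 3 P450 enzymes outside the symbol rule. Cyp51, of cholesterol synthesis, rose in ALI (0.98 ± 0.17, adjusted p = 0.000778), Ptgis, the prostacyclin synthase, fell (-0.83 ± 0.17, adjusted p = 0.00267), and Tbxas1, the thromboxane synthase, did not pass the test (-0.26 ± 0.29, adjusted p = 0.514).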

How the data were processed

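Lung RNA of 12 libraries (4 groups of 3) was sequenced as poly(A)-selected, dUTP-marked read pairs, per the labels' protocols. The authors deposited 1 table with a raw count and an FPKM value per gene and library, per the file headers. Tools listed in the submitters' processing notes are HISAT2 2.0.4, StringTie 1.3.4d, cutadapt 1.9, edgeR and DESeq2, with the GRCm38 build; which tool counted, with what strand setting and gene annotation, is not given in the sources used here. Groups came from the sample titles. Counts were filtered (filterByExpr, minimum count 10), scaled by TMM and fitted with 1 mean per group in edgeR 4.0.16 (quasi-likelihood test, R 4.3.3), with Benjamini-Hochberg adjustment over 22915 genes and calls at an adjusted p under 0.05. SEs were taken from the F statistic. FPKM values describe levels only, and were tested only in the limma 3.58.1 alternatives.

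Members with several transcript types counted when protein_coding was among them; 35 of the 69 list only that type, and of those 14 were tested, 7 lower and 2 higher in ALI. The 4 matching symbols without that type were left out. Positions are those of GENCODE M21 (GRCm38), matched by Ensembl ID. Close copies were found with BLAST 2.17.0 among GENCODE transcripts. Of the 69 members, 54 had a RefSeq promoter entry.

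The members and lists were chosen with earlier results of these data known. Library values are given for some members with a group mean of at least 1 FPKM. They were among the 12 highest by largest group mean, among the 8 largest called changes in any comparison, or highest in their role. As exceptions, Cyp20a1 is given by mean and SD, and Cyp2c23 has library values although its group means were below 1 FPKM. Other members are named where called, and stretches of the genome or neighbours were named after their values were seen. Alternatives were RLE scaling, DESeq2 1.42.0, no filter, a filter at 50 counts, limma on log2(FPKM + 1) and log2(FPKM + 0.1), a replicate block and leaving out each library. The fit was tested on simulated data.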

Additional observations from a re-analysis of the deposited data

How the results depend on the processing

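The count of members lower in ALI than in Control was 23 in the reported fit and 16 to 25 with 1 library left out, and the count higher was 4 to 5. With DESeq2, 11 members were higher in MSC than in ALI and 2 were lower in tpMSC than in MSC, in a fit that called 1821 and 449 of 22915 genes in these directions against 1153 and 3 in the reported fit. Without the filter, 5 members were lower in MSC than in Control, and limma on log2(FPKM + 1) gave 7 lower in tpMSC than in Control. Leaving out 1 library gave 3 to 8 higher in MSC than in ALI, 6 to 10 higher in tpMSC than in ALI, 0 to 2 lower in tpMSC than in MSC, 2 to 9 lower in MSC than in Control and 2 to 5 lower in tpMSC than in Control. The causes of these shifts were not tested. A fit with a library left out also has fewer samples, and the part of this was not tested either. With a replicate block, 23 members were lower in ALI and 8 were lower in MSC than in Control, and the other counts equalled the reported ones. The members differed: with the block Cyp2a5 lost and Cyp3a13 gained the call in ALI against Control (adjusted p = 0.0607 and 0.0442), Cyp2j9 lost and Cyp2d22 gained it in MSC against ALI (0.0608 and 0.0201), and Cyp2ab1 lost it in MSC against Control (0.0645). The labels state no pairing by replicate number. Over 18 pairs of libraries with the same number, deviations from group means had correlations between -0.108 and 0.104. The best match of a library carried its own number in 4 of 12 cases. These values showed no pairing, but with 3 libraries per group they cannot exclude one. Over 246 pairs of tested member and comparison, 70 were called, 24 of those lost the call under at least 1 alternative, 29 others gained one, and none of the called estimates changed sign under any alternative run. The call was kept in every alternative that tested the member by 20 of 28 members in ALI against Control, 5 of 10 in MSC against ALI and 9 of 10 in tpMSC against ALI. It was kept by 6 of 14 in MSC against Control and 6 of 8 in tpMSC against Control. Under the stricter filter 11 of the 41 members were not tested, Cyp2b19, Cyp11a1 and Cyp3a57 among them.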
